A study of Mus musculus with 24 samples.

Results

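The vascular endothelial growth factor (VEGF) family was examined as 9 genes: the ligands Vegfa, Vegfb, Vegfc and Pgf, the receptors Flt1, Kdr and Flt4, and the neuropilins Nrp1 and Nrp2. The members were taken by name, as the probes whose RefSeq accession mapped to one of these genes, and not by any measured value. Earlier results of these data were known when the members were chosen. They were 9 of the 18539 genes named on the array and held 15 of its 41174 probes. Vegfa had 4 probes, Vegfb, Flt1 and Nrp1 had 2 each, and the other members had 1. Where a gene had several probes, the brightest was used, and it was the same probe in both tissues.

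VEGF-A is the main growth and permeability signal for blood vessel endothelium and acts chiefly through the receptor tyrosine kinase KDR (VEGFR2). FLT1 (VEGFR1) binds VEGF-A, VEGF-B and placental growth factor (PGF) tightly, signals weakly and can hold VEGF-A away from KDR. VEGF-C acts mainly through FLT4 (VEGFR3), the receptor best known from lymphatic vessels, and the neuropilins are co-receptors that also bind class 3 semaphorins. In skeletal muscle, VEGF-A made by the fibres is known to maintain the capillary bed.

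RNA came from CD105+/CD45- cells that were sorted from the aorta and from the leg muscles (plantaris, gastrocnemius and biceps femoris) of male mice. The mice were wild-type C57BL/6 (WT) or galectin-3 (-/-) (KO, a germline deletion in Lgals3 in every cell of the animal), and from 8 weeks of age both strains were fed for 8 weeks on chow, with 12% of its calories from fat, or on a fat-rich diet (HFD) with 60%. The 8 groups of tissue, strain and diet had 3 arrays each, 1 per experiment, and each array held cells pooled from 3 mice by the methods (the deposited description gives a slightly wider range), with aorta and muscle taken from the same mice. The cells of an array are therefore a pool, and fewer cells of a type cannot be told apart from less RNA per cell. The limma p-values rest on the spread between pools, estimated together over the groups of each fit and not from 3 pools alone.

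All values below are levels on a log2 scale, the processed signal of a probe set against the array's 75th percentile, which is 0 on this scale. Levels of different probes are not compared with each other. The share of spots well above background was 59.5% to 75.7% per array, the 75th percentile ranged from 2390 to 5938 signal units, and no spot was saturated. The 24 arrays lay on 6 slides of 4, and each slide held 1 tissue from 1 experiment, so that slide and tissue cannot be separated within an experiment. Scanning took place in 2 sessions, with experiment 1 in the earlier one. Lgals3 itself did not check the strain labels: arrays labelled KO minus WT gave 1.54 ± 0.42 (SE) in aorta (limma, adjusted p = 0.846) and 1.02 ± 0.30 in muscle (adjusted p = 1.00), and whether its probe lies inside the deleted part of the gene is not known here.

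The sort was read back from marker genes. All 14 endothelial markers were well above background on all 24 arrays, and their mean level was 3.56 ± 0.62 (SD, n = 12) in aorta, with a range of 2.45 to 4.30, and 4.71 ± 0.12 in muscle, with a range of 4.50 to 4.89. Other cell types' markers also differed between the tissues: all 10 skeletal muscle fibre markers were called higher in muscle (mean level 1.62 against -4.30 in aorta), all 8 fibroblast markers and all 5 tested adipocyte markers were called higher in aorta, and so were 4 of 6 lymphatic endothelial markers. Of 7 pericyte markers, 5 were called higher in muscle, and of 9 smooth muscle markers 5 were called higher in muscle and 1 in aorta. Of 8 tested macrophage markers and 2 tested mesothelial markers, 1 each was called higher in aorta. The mean level of the fibroblast markers was 5.22 in aorta and 1.15 in muscle. The part of the other cell types in any result below was not tested.

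The sequences upstream of a ligand and of a co-receptor are shown because their levels differed between the tissues in opposite directions: Vegfa was higher in aorta and Nrp2 in muscle. Both windows are the 250 bases before the annotated gene start in RefSeq (GRCm38.p6), read on the strand of the gene, 5′ to 3′. The Vegfa window is chr17:46032378-46032627 on the minus strand and the Nrp2 window is chr1:62703067-62703316 on the plus strand. Capitals mark the GC box GGGCGG, the letters bound by SP1-type factors, on either strand.
Vegfa: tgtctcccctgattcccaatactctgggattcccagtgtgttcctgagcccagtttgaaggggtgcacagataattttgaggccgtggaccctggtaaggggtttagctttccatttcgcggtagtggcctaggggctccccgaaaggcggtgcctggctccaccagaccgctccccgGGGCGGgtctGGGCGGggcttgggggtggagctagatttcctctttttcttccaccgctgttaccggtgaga
Nrp2: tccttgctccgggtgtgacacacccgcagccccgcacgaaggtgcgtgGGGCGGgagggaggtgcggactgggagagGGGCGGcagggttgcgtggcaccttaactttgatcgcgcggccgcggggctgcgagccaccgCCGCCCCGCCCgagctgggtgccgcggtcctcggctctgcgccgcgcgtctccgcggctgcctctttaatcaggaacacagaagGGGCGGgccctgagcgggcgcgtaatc

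The GC box occurred 2 times in the Vegfa window and 5 times in the Nrp2 window, and 32.7% of all 32851 promoter windows of that length hold it. The ETS core GGAA, common upstream of endothelial genes, occurred 6 times before Vegfa and 1 time before Nrp2, against 93.4% of windows with a match. Neither window held the hypoxia response element core ACGTG, which 16.6% of windows hold, or the TATA box TATAAA, which 12.4% hold. A second annotated Vegfa promoter window (chr17:46025164-46025413), which lies inside the gene and is not shown, held 1 match of ACGTG. All 4 motifs were searched on both strands. GGAA and TATAAA cannot lie within a GC box match, and a match is a description of the letters only.

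The ligands Vegfa, Vegfb and Pgf were higher in the aortic cells and Vegfc was not called different. Vegfa was the member with the largest difference. In aorta its level was 0.93, 0.45 and 0.76 in the 3 WT chow arrays, 0.19, -0.30 and 0.01 with WT HFD, 0.61, -0.33 and 0.62 with KO chow, and 0.08, -0.08 and 0.29 with KO HFD. In muscle it was -2.44, -2.06 and -2.09 with WT chow, -0.95, -3.01 and -3.32 with WT HFD, -1.53, -1.40 and -1.71 with KO chow, and -1.13, -2.90 and -1.94 with KO HFD. Every muscle array lay below every aortic array, whose lowest value was -0.33. This was so for 1 of the 9 members, and for 5.64% of all probes. The fitted difference, muscle minus aorta, was -2.31 ± 0.24 (SE), 4.95-fold lower in muscle (95% interval -2.82 to -1.80; limma, adjusted p = 4.07e-07), and it was below 0 in 12 of 12 pools.

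The other Vegfa probes gave differences of the same sign and of different sizes. Probe A_51_P482552 gave -3.95 ± 0.40 and A_52_P249424 gave -2.46 ± 0.40, both called, and they were well above background on 9 and 11 of the 12 muscle arrays. The dimmest, A_52_P229471, was well above background on 8 aortic and 7 muscle arrays and gave -0.87 ± 0.49 (adjusted p = 0.156), which was not called. Vegfa has many splice forms, and which of them each probe reads was not analysed here.

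Vegfb, a ligand of FLT1 linked to fatty acid handling, ranged from 2.76 to 3.89 in aorta (median 3.16) and from 1.05 to 2.96 in muscle (median 1.84). The ranges overlapped through a single muscle array, WT chow of experiment 2 at 2.96. The difference was -1.37 ± 0.18, 2.59-fold lower in muscle (adjusted p = 8.00e-06), and all 12 pools were below 0. The other Vegfb probe gave -1.17 ± 0.17 (adjusted p = 2.63e-05).

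Pgf, which binds FLT1 and not KDR, was well above background on all 24 arrays and ranged from -3.70 to -1.35 in aorta (median -2.01) and from -4.39 to -1.71 in muscle (median -2.94). The ranges overlapped over most of their length. Its difference of -0.68 ± 0.27 was just past the threshold (adjusted p = 0.0467), and 9 of 12 pools were below 0. In experiment 1, the earlier scan session, the mean of the 4 pools was -0.03 ± 1.17 (SD), against -0.96 ± 0.69 in experiment 2 and -1.04 ± 1.30 in experiment 3. The call was lost without experiment 2 (-0.54) or experiment 3 (-0.50), and with slide as a random block (adjusted p = 0.201).

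Vegfc, the lymphangiogenic ligand, ranged from 2.06 to 3.72 in aorta (median 3.30) and from 2.82 to 3.91 in muscle (median 3.41). The difference was 0.14 ± 0.17 (95% interval -0.22 to 0.50; adjusted p = 0.524), with 8 of 12 pools above 0. The lowest array of the 24 was KO chow aorta of experiment 1. With the deposited log2 values, which were centred in each tissue separately, the difference of Vegfc turned to -0.13.

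**Figure D1:**
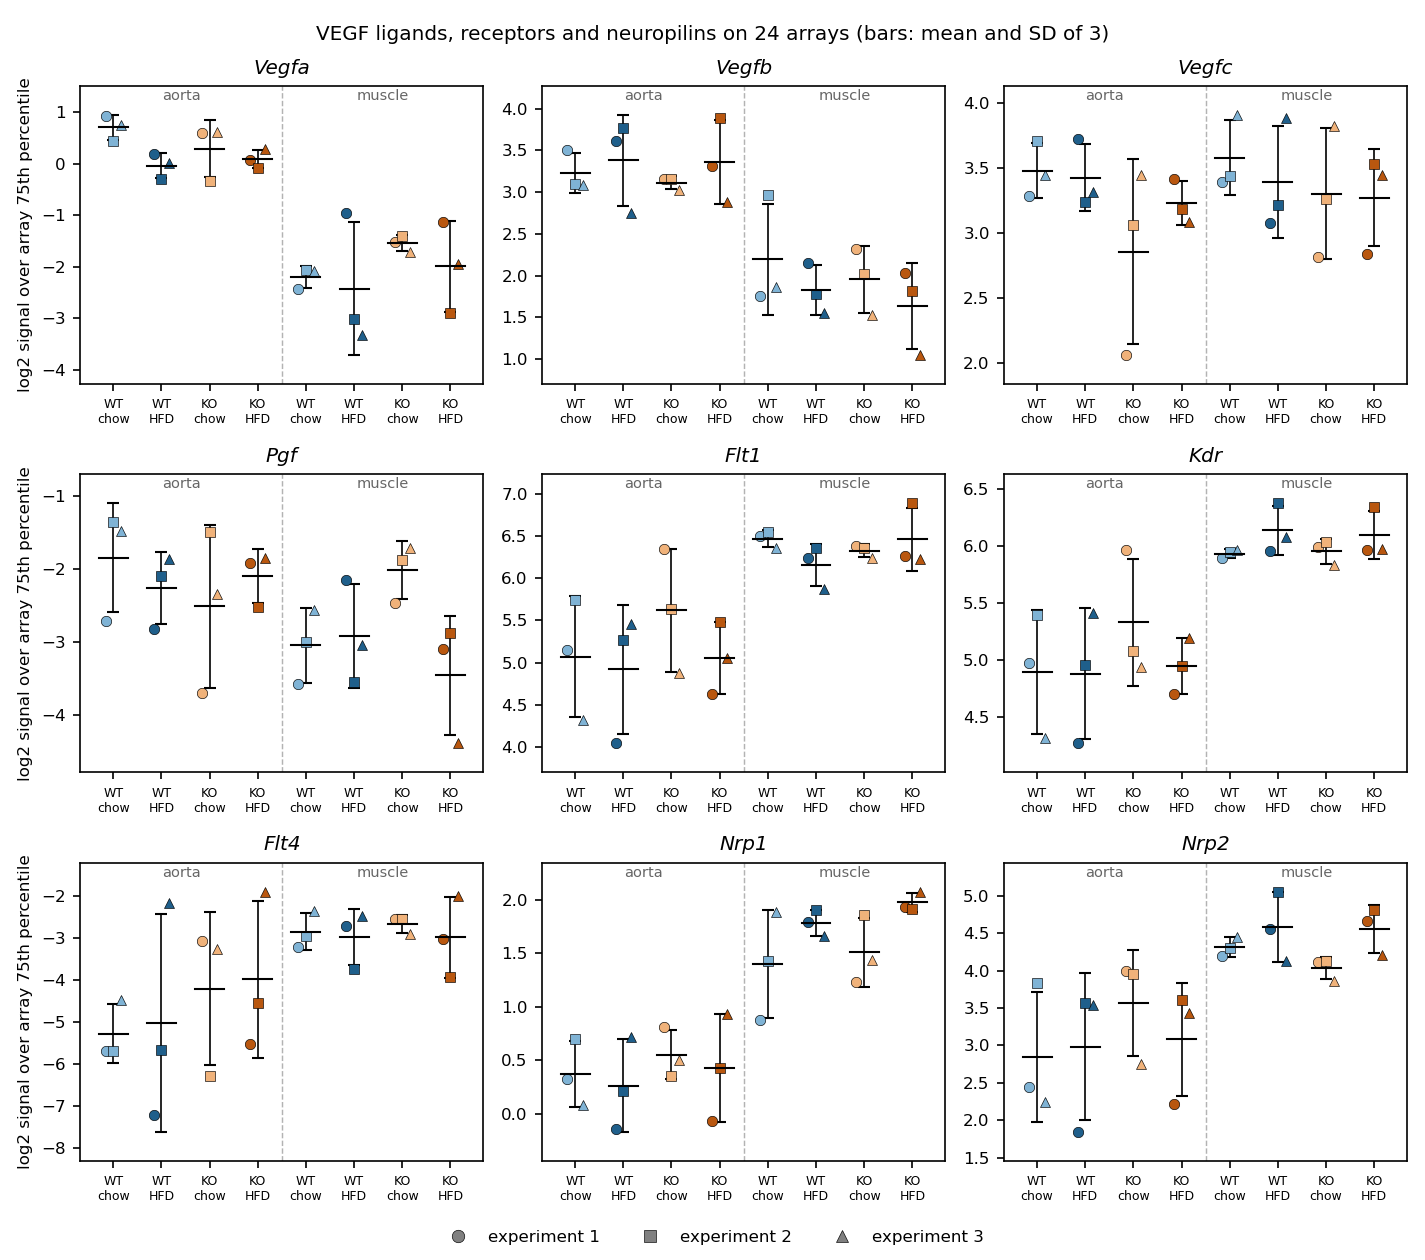
Level of the brightest probe of each of the 9 genes on each of the 24 arrays (y axis, log2 signal over the array's 75th percentile), by strain and diet (x axis), aorta left and muscle right of the dashed line. Symbols are the 3 experiments, and bars are the mean and SD of 3 arrays. Vegfa was no lower than -0.33 on the aortic arrays and no higher than -0.95 on the muscle arrays, whereas Vegfc overlapped between the tissues.

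All 3 receptors were higher in the muscle cells. Flt1 ranged from 4.05 to 6.34 in aorta (median 5.21) and from 5.87 to 6.89 in muscle (median 6.36). KO chow aorta of experiment 1, at 6.34, was the only aortic array within the muscle range. The difference was 1.19 ± 0.21, 2.27-fold higher in muscle (adjusted p = 1.23e-04), and all 12 pools were above 0. The other Flt1 probe gave 1.44 ± 0.26 (adjusted p = 2.00e-04).

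Kdr, the main signalling receptor, ranged from 4.27 to 5.97 in aorta (median 4.96) and from 5.83 to 6.37 in muscle (median 5.97). The same KO chow array of experiment 1 was again the only aortic array within the muscle range. The difference was 1.01 ± 0.16, 2.02-fold (adjusted p = 4.52e-05), with 12 of 12 pools above 0.

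Flt4 was dim, and in aorta it was well above background on 9 of 12 arrays. All 9 members passed the filter on dim probes in both tissues, Flt4 in aorta only through the WT chow group, where all 3 arrays were above background. Its aortic levels ran from -7.22 to -1.90 (median -5.03), and its muscle levels from -3.94 to -2.00 (median -2.82), so that the muscle range lay wholly inside the aortic one. The difference of 1.75 ± 0.53 was called (adjusted p = 0.0116), with 10 of 12 pools above 0. It was 2.49 ± 1.62 (SD) in the 4 pools of experiment 1, 2.25 ± 1.32 in those of experiment 2 and 0.51 ± 1.10 in those of experiment 3. The call was lost without experiment 1 (1.38) or experiment 2 (1.50), and with slide as a random block (adjusted p = 0.0627).

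Both neuropilins were higher in muscle. Nrp1, a co-receptor of KDR, ranged from -0.14 to 0.93 in aorta (median 0.39) and from 0.88 to 2.08 in muscle (median 1.83). The ranges touched through KO HFD aorta of experiment 3 and WT chow muscle of experiment 1. The difference was 1.26 ± 0.15, 2.40-fold (adjusted p = 2.27e-06), in 12 of 12 pools, and the second probe gave 1.28 ± 0.20 (adjusted p = 4.52e-05). Nrp2, which also serves FLT4, ranged from 1.85 to 4.00 in aorta (median 3.48) and from 3.87 to 5.06 in muscle (median 4.26). Only the KO chow aorta arrays of experiments 1 and 2, at 4.00 and 3.95, lay within the muscle range. Its difference was 1.25 ± 0.25, 2.39-fold (adjusted p = 4.45e-04), in 12 of 12 pools.

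In all, 8 of the 9 members were called between the tissues, and so were 46.1% of the 27387 probes tested. Of the members, 5 were called higher in muscle, against 30.1% of all probes, and 3 higher in aorta, against 16% of all probes. The difference had the same sign in 12 of 12 pools for 6 members (Vegfa, Vegfb, Flt1, Kdr, Nrp1 and Nrp2), against 22.4% of probes. The p-values printed for the members treat the arrays as independent, although slides are nested in tissue. With slide as a random block these 6 were still called by limma, as were 7715 of the 27387 probes. Their adjusted p-values were then larger, from 5.13e-05 (Vegfa) to 0.00905 (Nrp2). The median difference of all probes was not 0 but 0.27, and with the deposited values it was 0.01. Against that median of 0.27, the receptors and neuropilins were 0.74 (Kdr) to 1.48 (Flt4) higher in muscle, Vegfa was -2.58, Vegfb -1.64, Pgf -0.95 and Vegfc -0.14. With the deposited values the same 8 members were called with the same signs, while the split of all calls went from 8257 higher and 4373 lower in muscle to 4129 higher and 5927 lower.

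Within each strain and diet, the differences had the same direction as overall for Vegfa, Vegfb, Flt1, Kdr, Flt4, Nrp1 and Nrp2, but fewer were called. Of the 9 members, 4 were called on chow in WT mice (15.5% of probes) and 6 on HFD (16.7%). In KO mice 1 was called on chow (6.4% of probes) and 6 on HFD (16.3%). Vegfa was called in all 4, from -1.84 ± 0.49 in KO chow to -2.91 ± 0.49 in WT chow. Pgf was 0.50 ± 0.54 in KO chow and negative in the other 3. Whether the tissue difference depended on strain was not tested, and a test of the diet is given further on.

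Ordered by group mean, the 4 aortic groups and the 4 muscle groups stood apart for Vegfa, Vegfb, Flt1, Kdr, Flt4, Nrp1 and Nrp2. For Vegfa the step from the highest muscle mean to the lowest aortic mean was 1.51, for Vegfb 0.92 and for Nrp1 0.84, and at these steps no array of the lower group reached the higher one. For Kdr the step was 0.60, larger than the SD of 0.56 but with an array in common range, and for Flt1, Flt4 and Nrp2 it was within the larger SD. Among neighbours within a tissue, the gap in means exceeded the larger SD and the arrays did not overlap in 2 instances. These were Nrp1 in KO HFD over WT HFD muscle (by 0.19) and Nrp2 in WT chow over KO chow muscle (by 0.28). The nearest arrays were close. For Nrp1 they were 1.918 (KO HFD) and 1.904 (WT HFD), and for Nrp2 4.19 (WT chow) and 4.13 (KO chow). All other neighbouring groups within a tissue differed by less than their spread. Pgf and Vegfc gave mixed orders. Many neighbouring groups were compared, and the share of all probes with such orders or steps was not counted. The orders and steps are therefore a description only.

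The tissue differences of the receptors and neuropilins, from 1.01 (Kdr) to 1.75 (Flt4), lay around that of the endothelial markers. The level of these markers was higher in muscle by 1.15 ± 0.57 (SD, 12 pools). Whether the differences followed the marker level from pool to pool was not tested. When each array was scaled to these 14 markers in place of its 75th percentile (a setting added after the data were seen), 4 members were called in place of 8, and all 4 were ligands. Of the 27387 probes tested, 19178 were called on that scale, 18419 of them lower in muscle. Flt1 then differed by 0.04 ± 0.19 (95% interval -0.36 to 0.43), Kdr by -0.13 ± 0.15 (-0.45 to 0.19), Nrp1 by 0.11 ± 0.15 (-0.21 to 0.44), Nrp2 by 0.11 ± 0.20 (-0.30 to 0.52) and Flt4 by 0.60 ± 0.45 (-0.33 to 1.54). The ligands were lower in muscle on that scale, Vegfa by -3.45 ± 0.31, Vegfb by -2.52 ± 0.28, Pgf by -1.83 ± 0.28 and Vegfc by -1.01 ± 0.25 (adjusted p = 0.00155). That scale subtracts the marker level from every probe, so that a difference near 1.15 falls near 0 by construction. It moved the median of all probes to -0.87, so that most probes were lower in muscle on it. The value of Vegfc lay near that median.

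**Figure D2:**
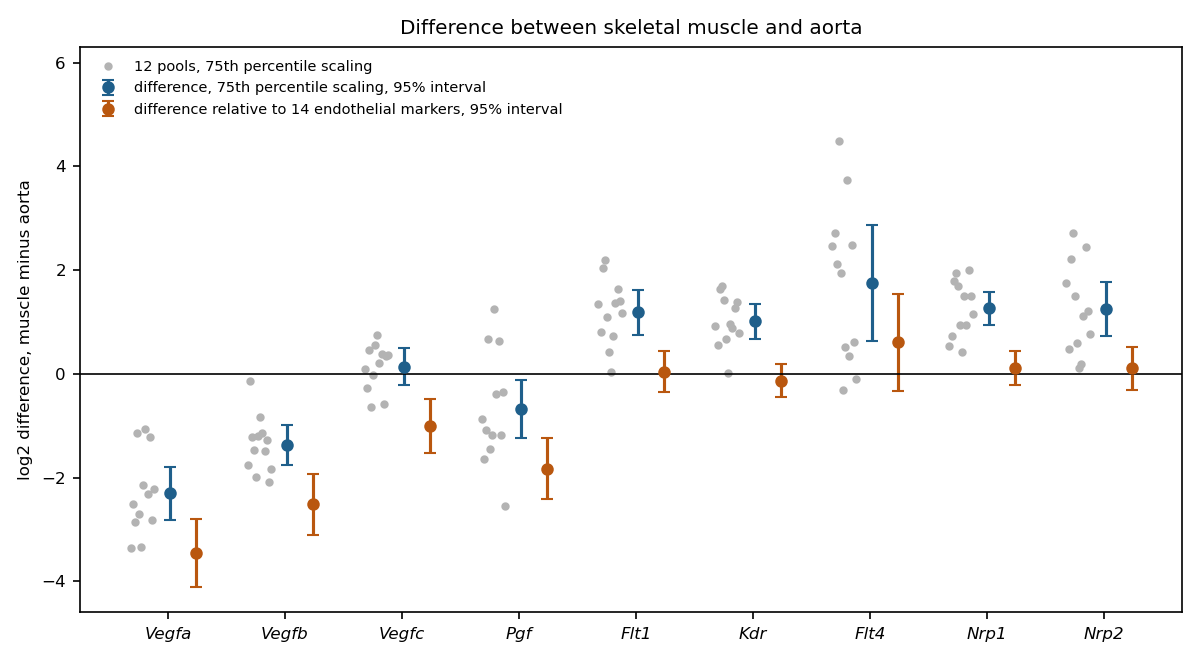
Difference in log2 level between muscle and aorta (y axis, muscle minus aorta) for each gene. Grey points are the 12 pools, blue is the fitted difference with its 95% interval and orange is the same after scaling each array to 14 endothelial markers. On the blue scale 5 genes were higher and 3 lower in muscle. On the orange scale the intervals of Flt1, Kdr, Flt4, Nrp1 and Nrp2 hold 0 and those of the 4 ligands lie below it. The median of all probes on the orange scale was -0.87.

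Across the 12 aortic arrays, Flt1, Kdr and Nrp2 varied together. After the mean of each group was subtracted, Pearson's r was 0.92 between Flt1 and Kdr, 0.91 between Flt1 and Nrp2, and 0.79 between Kdr and Nrp2. Against the endothelial marker level of the same arrays, r was 0.67 for Flt1, 0.78 for Kdr, 0.71 for Flt4, 0.93 for Nrp1 and 0.79 for Nrp2. For the ligands it was -0.12 for Vegfa, -0.64 for Vegfb, -0.25 for Vegfc and 0.34 for Pgf. The endothelial markers were not the only list that the receptors and neuropilins ran with. With the pericyte markers r was 0.57 for Flt1, 0.57 for Kdr, 0.72 for Nrp1 and 0.66 for Nrp2. Flt4 gave r = 0.73 with the smooth muscle markers and 0.72 with the adipocyte markers, and Kdr gave 0.60 with the latter. Among the ligands, Vegfb gave r = 0.78 with the fibroblast markers and Vegfa r = -0.77 with the macrophage markers. Vegfc gave r = -0.75 with the skeletal muscle fibre markers and -0.74 with the adipocyte markers. The points share slides and, in pairs, mice, and these values are a description only. In muscle, where the marker level varied little, Flt1 and Kdr gave r = 0.73, and both ran against Flt4 (r = -0.80 and -0.64). Against the endothelial markers r was there 0.43 for Flt1, 0.81 for Kdr, -0.27 for Flt4, 0.45 for Nrp1 and 0.30 for Nrp2.

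**Figure D3:**
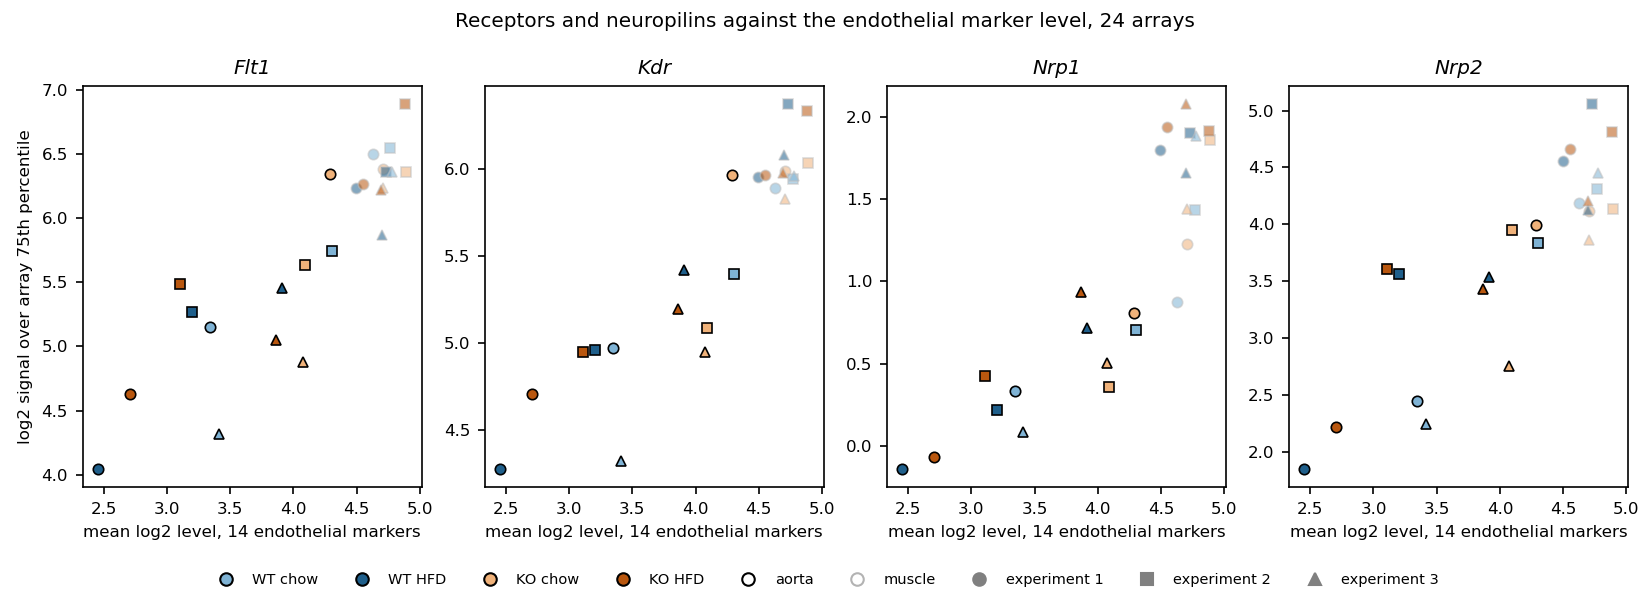
Level of Flt1, Kdr, Nrp1 and Nrp2 (y axes, log2 signal over the array's 75th percentile) against the mean level of 14 endothelial markers (x axes) on 24 arrays. Colours are strain and diet, symbols are experiments, and dark outlines mark aorta. Aortic arrays spread from 2.45 to 4.30 on the x axis and muscle arrays cluster between 4.50 and 4.89 with higher values of all 4 genes on average.

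The genes whose pattern was most like a member's were found over the 24 arrays after the mean of each tissue was subtracted, among 14157 genes. For Flt1 they were Sh3tc1, Adgrf5 and Pik3r6 (r = 0.94, 0.94 and 0.92), for Kdr Epb41l4a, St8sia4 and Tmem88 (r = 0.92 each), and for Nrp2 Adcy4, Tmem44 and Gm14207 (r = 0.92, 0.91 and 0.89). The values were lower for Nrp1 (Atp2b1, Dusp22 and Ets1, 0.80 to 0.83), Flt4 (Myo1e, Chd2 and Trim34a, 0.80 to 0.82), Vegfb (Fbxo36, Oscp1 and Hdgf, all 0.82) and Vegfc (Utp18, Pir and Ppil6, 0.80 to 0.83). They were lowest for Vegfa (Myo5a, Cdh2 and Unc93a, 0.67 to 0.68) and Pgf (Ttyh1, Lcn2 and Des, 0.64 to 0.70).

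The other genes of the pathway are counted by list, beside the 30.1% of all probes called higher in muscle and the 16% called higher in aorta. Of 13 tested extracellular partners and VEGF-C processing genes, 9 were called higher in aorta and 1 in muscle, with a median difference of -1.73 beside 0.27 for all probes. Vegfd, the remaining FLT4 ligand and no member here, was 3.17 in aorta and -2.64 in muscle, a difference of -5.81 ± 0.42 (adjusted p = 4.38e-09). Ccbe1, the cofactor of VEGF-C cleavage, differed by -7.18 ± 0.80 and was well above background on 9 of 12 muscle arrays. The syndecan Sdc2 differed by -2.78 ± 0.25. Adamts3, the protease that cleaves VEGF-C, was well above background on all aortic arrays but only 5 muscle arrays.

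Of 11 semaphorins and plexins, the neuropilins' other ligands and their partners, 6 were called higher in aorta (16% of all probes) and 2 in muscle (30.1%), with a median of -0.62. Sema3b differed by -4.40 ± 0.39 and Sema3d by -5.95 ± 0.54, the latter well above background on 4 muscle arrays. Sema3c and Plxna3 were well above background on 12 aortic arrays each and on 1 and 4 muscle arrays. Sema3b, Sema3c and Sema3d, ligands of the neuropilins, were thus called higher in aorta, where Nrp1 and Nrp2 were lower.

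Of 27 genes of VEGF receptor signalling, 19 were called higher in muscle (30.1% of all probes) and 4 in aorta (16%), with a median of 0.68. Plcg1, the phospholipase that docks on KDR, was higher in muscle by 2.11 ± 0.44 and well above background on 8 aortic arrays, and Ptprj, a phosphatase acting on KDR, was lower by -2.00 ± 0.20. The protein kinase C genes Prkca (-2.37 ± 0.36) and Prkcb were higher in aorta, and were well above background on 7 and 5 muscle arrays. Of 19 transcripts known to be induced by VEGF, 7 were called higher in muscle (30.1% of all probes) and 9 in aorta (16%), with a median of -0.48. The chemokine receptor Cxcr4 (3.10 ± 0.30) and the Notch ligand Dll4 (2.16 ± 0.27) were higher in muscle. Ptgs2 (-6.96 ± 0.59) and F3 (-6.94 ± 0.48), encoding cyclooxygenase-2 and tissue factor, were higher in aorta, where the fibroblast markers were also higher, and Ptgs2 was well above background on 8 muscle arrays. Of 21 hypoxia pathway genes, 9 were called higher in muscle (30.1% of all probes) and 3 in aorta (16%), with a median of 0.33 beside 0.27 for all probes. Ankrd37 (1.29 ± 0.24) and Eno1 (1.20 ± 0.39) were higher in muscle, and Adm (-1.27 ± 0.22) and Ppargc1a (-1.40 ± 0.54) in aorta. The calls of Eno1, Ppargc1a and Prkcb were lost with slide as a random block. They were also lost for Prkcb without experiment 2 (-1.39), for Ppargc1a without experiment 2 (-0.56) or 3 (-1.82), and for Eno1 without experiment 1 (1.34) or 2 (1.30) and with the deposited values (0.94). Relative to the endothelial markers Ankrd37 (0.14, adjusted p = 0.606 by limma) and Eno1 (0.0546, adjusted p = 0.890) were not called.

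Among the 4 largest changes of a list within a single strain and diet were further genes of the pathway. Endothelial nitric oxide synthase, Nos3, was higher in muscle by 2.12 ± 0.61 in WT HFD, and so was focal adhesion kinase, Ptk2, in WT HFD (1.32 ± 0.29) and KO HFD (1.48 ± 0.29). Nfatc1 in WT chow (1.25 ± 0.40), Sphk1 in KO chow (1.82 ± 0.45) and Hspb1 in KO HFD (1.42 ± 0.28) were also higher in muscle. The oxygen sensor Egln1 was higher in muscle on chow, by 1.37 ± 0.34 in WT and 1.18 ± 0.34 in KO, as were Egln2 in WT chow (1.03 ± 0.32) and the glucose transporter Slc2a1 in WT HFD (1.21 ± 0.39). Esm1 was higher in aorta on HFD, by -3.19 ± 0.42 in WT and -3.00 ± 0.42 in KO, and so was P4ha1 (-0.97 ± 0.33 and -1.18 ± 0.33). Itgb3, an integrin known to associate with KDR, was higher in aorta in KO chow (-1.84 ± 0.34), and so was the immediate early gene Nr4a1 (-2.30 ± 0.36).

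The high fat diet was not called to change any member in either tissue or strain. The diet comparison was made within experiments, as HFD over chow for the same strain, tissue and experiment, so that each value rests on 3 log2 ratios. By limma, 0 of 9 members were called in WT aorta, KO aorta and WT muscle, where 0% of probes were called, and in KO muscle, where 0.00389% were. Over both strains 0 of 9 were called in aorta (0.0309% of 25865 probes) and in muscle (0.288% of 25682 probes). No member passed the study's own rule, a ratio past 1 on the log2 scale in all 3 experiments, which 1.6% of probes did in WT aorta, 2.96% in KO aorta, 1.83% in WT muscle and 0.994% in KO muscle.

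The brightest Vegfa probe had the most even ratios of any member in WT aorta, -0.73, -0.75 and -0.75 in the 3 experiments. Their mean was -0.75 ± 0.26 (SE from the fit, 95% interval -1.37 to -0.12), with an unadjusted p of 0.0258 by limma and an adjusted p of 0.762. It was the single member under an unadjusted 0.05 there, where 5.77% of probes were. In KO aorta its ratios were -0.53, 0.26 and -0.33, and no member was under 0.05, where 11.3% of probes were. Over both strains Vegfa was -0.47 ± 0.18 (adjusted p = 0.308), below 0 in 5 of 6 pairs, and was again the single member under an unadjusted 0.05 (15.1% of probes). The endothelial marker level of the same WT pairs differed by -0.89, -1.10 and 0.50, and relative to these markers Vegfa in WT aorta was -0.25 ± 0.57. The 3 other Vegfa probes were uneven in the same arrays, and none was called. Over the 3 experiments A_51_P482552 gave 0.70, -0.0030 and -2.14 (mean -0.48), A_52_P249424 gave 0.81, -1.10 and -1.73 (mean -0.67), and A_52_P229471 gave 0.63, -1.95 and -1.17 (mean -0.83).

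Adipocyte markers moved with the diet in the same aortic arrays. Their mean level, over 5 genes, was 2.96 ± 0.73 (SD, n = 3) with WT chow and -1.24 ± 1.01 with WT HFD, and 3.50 ± 1.40 with KO chow and -0.49 ± 0.52 with KO HFD. The log2 ratios of HFD over chow were -4.59, -3.98 and -4.03 for WT, and for KO they were -6.18, -2.58 and -3.20. No HFD array reached a chow array, and all 5 genes had an unadjusted p under 0.05 by limma in each strain, with 0 of 5 called. Adipocyte markers were not alone in this. The fibroblast markers (0.03 to 1.27) and the smooth muscle markers (0.14 to 0.76) had ratios above 0 in every aortic pair. The endothelial markers ran from -1.58 to 0.50, and the remaining marker lists had pairs of both signs. The part of these lists was not tested. Adipocytes are known to express Vegfa. Over the 12 aortic arrays Vegfa and the adipocyte markers gave r = 0.59 on their levels and r = 0.24 after subtraction of group means, which also takes out the diet, and their part in the Vegfa ratios was not tested.

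The diet ratios of the receptors and neuropilins in aorta had opposite signs in experiments 1 and 3. In experiment 1 all 5 were below 0 in both strains, from -0.47 (Nrp1, WT) to -2.45 (Flt4, KO). In experiment 3 all 5 were above 0 in both strains, from 0.17 (Flt1, KO) to 2.31 (Flt4, WT). The endothelial marker level differed by -0.89 in WT and -1.58 in KO in experiment 1, and by 0.50 and -0.21 in experiment 3. In experiment 2 the marker level differed by -1.10 and -0.99, whereas the 5 genes had ratios of both signs, from -0.48 (Nrp1, WT) to 1.74 (Flt4, KO). The ratios of these genes thus did not run parallel to the marker level in every experiment. Over both strains the means were -0.36 ± 0.38 for Flt1, -0.20 ± 0.32 for Kdr, 0.24 ± 0.69 for Flt4, -0.12 ± 0.26 for Nrp1 and -0.17 ± 0.39 for Nrp2. The 95% interval of Kdr, -0.97 to 0.57, shows what size these arrays could miss. Without experiment 1 the means of Flt1, Kdr, Nrp1 and Nrp2 turned positive (0.17, 0.19, 0.16 and 0.34), none called. The dimmer Nrp1 probe gave -0.76 ± 0.27 (unadjusted p = 0.0285, adjusted p = 0.285), where the brighter one gave -0.12.

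The other aortic ligands had mean ratios nearer to 0, 0.20 ± 0.22 for Vegfb, 0.16 ± 0.27 for Vegfc and 0.00 ± 0.36 for Pgf. Pgf ratios in KO aorta ran from -1.03 to 1.78. In WT aorta 2 members, Vegfa and Pgf, had ratios of the same sign in all 3 experiments, as 26.9% of probes did, and in KO aorta 0 did, against 33.3% of probes. Over all 6 pairs of a tissue 0 members kept 1 sign in aorta (10.4% of probes) or muscle (11.4%).

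In muscle, Pgf in KO mice had the mean ratio furthest from 0 of any member, with ratios of -0.63, -1.01 and -2.67. The mean was -1.44 ± 0.52 (95% interval -2.68 to -0.19; unadjusted p = 0.0296 and adjusted p = 0.557 by limma), and it was the single member under an unadjusted 0.05 (8.49% of probes). In WT muscle the Pgf ratios were 1.43, -0.55 and -0.48, and no member there was under 0.05 (12.1% of probes). Without experiment 3 the KO mean was -0.82. In the pair of experiment 3 the log2 ratio was also low for the macrophage markers (-2.31) and the adipocyte markers (-3.31). The same held for the mesothelial (-2.77), lymphatic endothelial (-2.15) and skeletal muscle fibre markers (-1.87). The pericyte (-0.44), smooth muscle (-0.38), endothelial (-0.01) and fibroblast markers (0.34) lay nearer to 0. Over both strains Nrp1 gave 0.43 ± 0.20 and Nrp2 0.39 ± 0.18, each above 0 in 5 of 6 pairs. The adjusted p was 0.344 for both, and no member was under an unadjusted 0.05 in that comparison (16.4% of probes). The endothelial marker level of these pairs differed by -0.15 to -0.01. The fibroblast marker level was higher with HFD in all 6 pairs (0.17 to 2.35), 5 of its 8 genes with an unadjusted p under 0.05 and 0 called. The pericyte marker level was lower in all 6 pairs (-0.93 to -0.10), 5 of its 7 genes under an unadjusted 0.05 and 0 called. The other marker lists, macrophage markers among them (-2.31 to 2.92), had pairs of both signs. After subtraction of group means in muscle, the fibroblast markers gave r = -0.62 with Nrp1 and -0.09 with Nrp2. The part of these cell types was not tested.

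Kdr and Flt1 had the narrowest spread within groups in muscle (SD 0.16 and 0.23). Kdr ratios ran from -0.02 to 0.43, with a mean of 0.17 ± 0.14, and Flt1 ratios from -0.48 to 0.53, with a mean of -0.09 ± 0.16. Vegfa ratios were far apart, 1.49, -0.95 and -1.23 in WT and 0.40, -1.50 and -0.24 in KO, and experiment 1 lay highest in both strains. Other Vegfa probes read differently in muscle: A_51_P482552 gave -1.47 ± 0.50 in WT, where it was well above background on 2 of 3 chow and 1 of 3 HFD arrays, and 0.73 ± 0.50 in KO, and A_52_P249424 gave -1.50 ± 0.76 and -1.24 ± 0.76. Ratios of Flt1, Kdr and Vegfc in WT muscle (36.7% of probes) and Vegfb, Pgf, Nrp1 and Nrp2 in KO muscle (28.4% of probes) kept 1 sign over the 3 experiments.

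**Figure D4:**
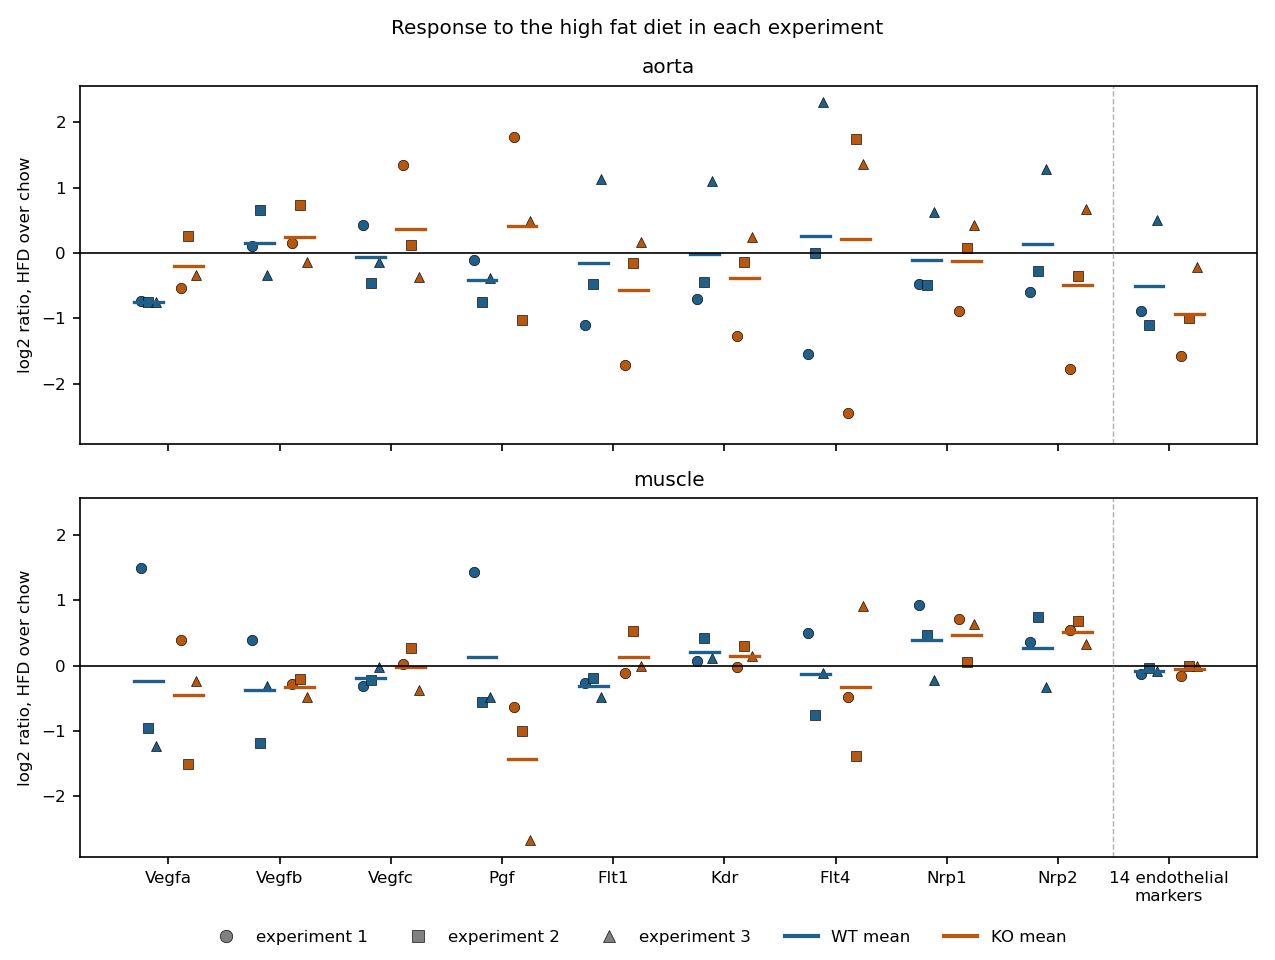
Log2 ratio of HFD over chow (y axis) in each experiment for the 9 genes and for the mean of 14 endothelial markers (x axis), aorta above and muscle below. Symbols are experiments, colours are strains and lines are the means of 3. In aorta the 5 receptor and neuropilin genes lie below 0 in experiment 1 and above 0 in experiment 3, whereas the 3 WT ratios of the brightest Vegfa probe coincide near -0.75.

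The response to the diet was not called to differ between the strains or the tissues for any member. For KO minus WT, 0 of 9 members were called in aorta (0% of probes) and in muscle (0%), and 0 of 9 were under an unadjusted 0.05 by limma, against 2.62% of probes in aorta and 4.12% in muscle. An exact permutation test of 3 ratios against 3 cannot go below a two-sided p of 0.1. It gave 0.1 for Vegfa in aorta (-0.75 in WT and -0.20 in KO), and for Pgf (0.13 and -1.44) and Flt1 (-0.31 and 0.13) in muscle, and 0.5 or more for the other 15 of 18 tests, with an adjusted p of 0.6 or above for all. For muscle minus aorta 0 of 9 were called (0% of 27387 probes) and 0 of 9 were under an unadjusted 0.05 (9.24% of probes). The values furthest from 0 were -0.65 ± 0.56 for Pgf, 0.56 ± 0.46 for Nrp2, 0.55 ± 0.33 for Nrp1 and -0.55 ± 0.31 for Vegfb. The dimmer Nrp1 probe gave 1.22 ± 0.38 (unadjusted p = 0.00824, adjusted p = 0.367).

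No member was called between the strains. Averaged over the diets, KO minus WT was called for 0 of 9 members in aorta (0.0116% of probes) and in muscle (0% of probes). Under an unadjusted 0.05 there were 0 of 9 in aorta (3.39% of probes) and 0 of 9 in muscle (3.27%). The largest value in aorta was that of the dim Flt4 probe, 1.05 ± 0.93. Vegfc was below WT in the arrays labelled KO in 6 of 6 aortic pairs, with a mean of -0.41 ± 0.25 (95% interval -0.97 to 0.15) and a range of -1.22 to -0.01. It was the only member with 1 sign in all pairs there, as 4.47% of probes were, and 0 were in muscle (5.56%). In muscle the values ran from -0.21 ± 0.28 for Vegfb to 0.54 ± 0.41 for Vegfa, for which another probe, A_52_P249424, gave -1.02 ± 0.64.

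The 5 pathway lists had 0 genes called by limma for the diet in either tissue. At an unadjusted 0.05 over both strains, those under it in muscle, beside 16.4% of all probes, were 8 of 18 VEGF-induced transcripts (5 above 0 and 3 below), 3 of 10 extracellular partners, 1 of 7 semaphorins and plexins, 2 of 26 signalling genes and 3 of 21 hypoxia genes. In aorta, beside 15.1% of all probes, they were 4 of 19, 2 of 13, 3 of 11, 5 of 26 and 3 of 21 in the same order of lists. Among the genes past 1 in all 3 experiments, Esm1, a secreted proteoglycan induced by VEGF-A, was -1.37 ± 0.35 in KO muscle (adjusted p = 0.412). In WT muscle these were Ccbe1 (2.52 ± 0.56), Plcg1 (-1.51 ± 0.42) and Ppargc1a (-2.42 ± 0.83). In WT aorta they were Plxna3 (2.05 ± 0.57) and Mmp9 (-2.48 ± 0.98), and in KO aorta Prkca (2.39 ± 0.62). None of these passed adjustment, with adjusted p-values from 0.225 to 0.840. The study itself named Prkca and Ccbe1 for the diet in aorta from these same arrays, so that the aortic value of Prkca is no independent evidence.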

How the data were processed

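Total RNA from 24 pools of sorted cells was amplified, labelled with Cy3 and hybridised to single-colour Agilent mouse arrays. The deposited intensity values are Feature Extraction signals that the authors' scanner software had corrected for background (the file headers and the submitters' notes name different versions). The deposited log2 table holds the same signals, shifted by 1 constant per array and centred for each tissue separately, and was used as an alternative. Outlier spots were left out, spots of a probe were averaged, and log2 of the signal over the array's 75th percentile was the main value. Probes well above background on all arrays of at least 1 group were tested, 25865 in aorta, 25682 in muscle and 27387 for both. Genes were named through RefSeq accessions (GRCm38.p6).

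limma 3.58.1 in R 4.3.3 was fitted to all tested probes with Benjamini-Hochberg adjustment, and a call is an adjusted p under 0.05. Diet was tested with strain and experiment as a block, strain over 4 group means and tissue over 8 group means. Scripts were tested on simulated data. The labels number the experiments, and aorta and muscle of a pool came from the same mice. The deviations of such pairs from their group means had correlations of 0.07 to 0.40 over the 12 pools. The 9 members, the 9 marker lists and 5 pathway lists, and the rule for naming genes were chosen with earlier results of these data known. Named were all members and, of each pathway list, up to 4 called genes by size of change in each comparison of the tissues, and for diet also the genes past 1 in all 3 experiments. Alternatives were normexp background correction on the spot median, quantile normalization, the deposited table, both other filters on dim probes, other probes, each experiment left out, and blocks for experiment, pool or slide. No sequence of the probes was used here.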

Additional observations from a re-analysis of the deposited data

How the results depend on the processing

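Over all groups the number of members called between the tissues was 6 to 8 under every other alternative run, and 4 relative to endothelial markers, a setting added after the data were seen. All probes called numbered 12630 in the main setting and 7715 to 15402 under those alternatives, the fewest with slide as a random block. They numbered 19178 relative to endothelial markers. With pool as a replicate block 8 were called. Pgf and Flt4 lost their call with slide as a random block, and Pgf also with no filter on dim probes and with means of 4 arrays per experiment. Within 1 strain and diet the counts moved more. In WT chow 2 were called with the deposited table, 2 with no filter on dim probes and 1 without any single experiment. All probes called in WT chow numbered 4247 in the main setting and 3616 with the deposited table. They numbered 3263 of 41174 with no filter, and 1257 to 2698 leaving out an experiment. Leaving out an experiment gave 0 to 5 in WT HFD, 0 to 1 in KO chow and 0 to 3 in KO HFD, with 0 without experiment 2 in all 3 and without experiment 3 in KO chow. All probes called then ran from 1208 to 3176 in WT HFD, against 4565 in the main setting. In KO chow they ran from 300 to 1265, against 1754, and in KO HFD from 1347 to 2573, against 4477. In KO chow quantile normalization, the deposited table and pool as a replicate block gave 2 each, and in KO HFD quantile normalization and the deposited table gave 3 each. In the same order, all probes called numbered 1938, 1926 and 2724 in KO chow, and 4505 and 3955 in KO HFD. For the diet and the strains 0 members were called under every alternative run, among them the methods' one-sample test, no replicate block and experiment as a replicate block. The most probes called there were 451 of 25865, for the diet over both strains in aorta relative to endothelial markers.

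The values given next turned direction, and after turning none was called except that of Vegfc on the endothelial scale. Between the tissues Vegfc was -0.13 with the deposited table, -1.01 relative to endothelial markers and -0.0132 to 0.25 leaving out experiments, and Kdr, called at 1.01, was -0.13 relative to endothelial markers. For the diet in aorta, relative to these markers, Vegfa was 0.24, Flt1 0.35, Kdr 0.51, Nrp1 0.60 and Nrp2 0.54, and for muscle minus aorta Nrp1 was -0.10 and Nrp2 -0.0773. Pgf in aorta was -0.0205 with normexp and -0.0010 with the deposited table. Other probes gave 0.14 for Vegfa (A_52_P229471) in aorta and 0.11 for Vegfb (A_52_P436628) in muscle for the diet, and -1.02 for Vegfa (A_52_P249424) and 0.0411 for Vegfb (A_52_P436628) in muscle for the strains. Leaving out an experiment, the diet values in aorta ran from -0.0521 to 0.42 for Vegfb, -0.21 to 0.36 for Vegfc, -0.42 to 0.45 for Pgf, -0.86 to 0.17 for Flt1, -0.63 to 0.19 for Kdr, -0.56 to 1.35 for Flt4, -0.44 to 0.16 for Nrp1 and -0.75 to 0.34 for Nrp2, and in muscle from -0.98 to 0.11 for Vegfa and -0.54 to 0.20 for Flt4. Apart from the endothelial scale, whose own construction subtracts the marker level, the cause was not tested. Flt4 in aorta is limited by signal near background, being well above it on 9 of 12 arrays.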
